A study of Drosophila melanogaster with 6 samples.

Results

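The fly mitochondrial genome supplied 13 of the 22064 features that the 6 brain libraries were counted on, and these 13 were every feature whose symbol begins with mt:. They are the protein-coding genes of the organelle: mt:ND1, mt:ND2, mt:ND3, mt:ND4, mt:ND4L, mt:ND5 and mt:ND6 of complex I, mt:Cyt-b of complex III, mt:CoI, mt:CoII and mt:CoIII of complex IV, and mt:ATPase6 and mt:ATPase8 of the ATP synthase. An Ensembl annotation of the BDGP6 assembly also lists 2 ribosomal RNA genes, 22 tRNA genes and 1 pseudogene on the mitochondrial genome. The feature list used here has no row for any of them, so ribosomal and transfer RNA were not analysed here. All 13 members had unique molecular identifiers (UMIs, tags that mark single captured molecules) in every library and passed the filter on low counts in barcodes of at least 1000 UMIs.

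The mitochondrial genome is a small circle present in many copies per cell. It is transcribed from both strands into long precursors, and the tRNAs that lie between most coding regions are cleaved out to release the mRNAs. The products are membrane-embedded core subunits of the respiratory chain and of ATP synthase. The other subunits of these complexes, and the factors that copy, transcribe and process mitochondrial DNA and RNA, are made from nuclear genes. In insects mt:ATPase8 and mt:ATPase6 are read from 1 mRNA, and so are mt:ND4L and mt:ND4.

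Droplet libraries were made from dissociated whole brains, each from a pool of 20 males and 20 females, with a 10x Genomics kit that counts the 3′ end of polyadenylated RNA. The 3 control libraries carry the driver elav-GAL4(x) in 1 copy and are labelled wild type. The 3 knock-in libraries are labelled elav-tau P251L KI, a mutant in which tau, a protein that binds microtubules, carries the P251L change. Fly age, the way the knock-in was built and preparation dates are not given in the sources used here.

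Total UMIs per library were 22026339, 103683860 and 26732897 in controls 1 to 3 and 114599045, 95770658 and 37984526 in knock-ins 1 to 3. A barcode with at least 1000 UMIs is called a cell here, without any filter on its mitochondrial share, and there were 101719 such barcodes, from 5467 to 30602 per library. Of these sequences 1100 occurred in more than 1 library, and no pair of libraries shared more than 1.02% of the smaller. Markers of neurons, 8 genes, summed to between 9616 and 11498 CPM (UMIs of a gene per 1000000 UMIs of the same barcodes) in cells, and 12 markers of glia summed to between 501 and 1002. Knock-in 3 stood apart. It had 68.7 CPM of tau in its cells against 307 and 311 in the other knock-ins and 269 to 280.2 in the controls, and its mitochondrial share was the highest of the 6, so results that rest on it are also given without it. The labels do not say that the libraries came from separate preparations, so p-values measure the spread between these 6 libraries.

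In cells, mitochondrial mRNAs made up a larger share of all UMIs in each knock-in library than in any control library. The share was 4.12%, 4.25% and 4.80% across controls and 5.49%, 5.98% and 7.70% across knock-ins. The groups did not overlap, and knock-in 3 was the highest. The means were 4.39% ± 0.363 (SD, n = 3) and 6.39% ± 1.16 (SD, n = 3), a ratio of 1.46. Two-sided exact permutation of the libraries gave p = 0.1, the smallest value that 3 against 3 allow, and 0.14 when adjusted over the 7 barcode classes compared. Without knock-in 3 the difference fell from 2.00 to 1.34 percentage points. Gene by gene, none of the 13 passed edgeR's quasi-likelihood test at an adjusted p of 0.05, which 25 of 11200 features passed (0.223%). That count was 9, 2 and 11 without controls 1, 2 and 3, 1 without knock-in 1 or knock-in 2 and 61 without knock-in 3, with no member among the calls. All 13 had a fitted log2 fold change above 0, with a median of 0.67 beside a median of 0.00 over all features. Without knock-in 3 the members' median was 0.46 beside 0.01, with 10 of 13 above 0. With all 6 libraries there were 6 members and 1343 features at an unadjusted p under 0.05. DESeq2 called 2 members, mt:CoI and mt:Cyt-b, among 111 features called higher (0.991%).

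Cytochrome c oxidase, complex IV, passes electrons to oxygen, and its 3 mitochondrial subunits form the catalytic core. mt:CoI, which binds the heme and copper where oxygen is reduced, stood at 8950.4, 9585 and 11533 CPM across controls and at 13546, 17449 and 16313 across knock-ins. Every knock-in library was above every control, with knock-in 2 the highest. Its log2 fold change was 0.75 ± 0.18 (SE), with an adjusted p of 0.225 by edgeR and of 0.00372 by DESeq2. mt:CoII, which takes electrons from cytochrome c, had 8085, 9691 and 10447.5 CPM across controls and 13356, 10301 and 13999 across knock-ins. Knock-in 2 lay just under control 3, so the groups overlapped, and the log2 fold change was 0.50 ± 0.18 (SE), with an adjusted p of 0.359 by edgeR. mt:CoIII had 7683, 9119 and 10012 CPM across controls and 11093, 11393 and 14006 across knock-ins. These groups did not overlap, and the log2 fold change was 0.54 ± 0.17 (SE), with an adjusted p of 0.318 by edgeR.

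Cytochrome b, the mitochondrial subunit of complex III, holds the sites where ubiquinol is oxidised and ubiquinone reduced. mt:Cyt-b had 4772, 5002 and 5839 CPM across controls and 7366, 6555 and 9364 across knock-ins. All knock-in values lay above the controls. The log2 fold change was 0.67 ± 0.17 (SE), with an adjusted p of 0.248 by edgeR and of 0.00822 by DESeq2.

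ATP synthase, complex V, lets protons through a channel to which mt:ATPase6, subunit a, contributes. mt:ATPase6 had 6528, 5684 and 6761 CPM across controls and 6955, 7670.1 and 13623 across knock-ins. Knock-in 3 alone was far above the rest, and knock-in 1 lay just above control 3, so the groups did not overlap. The log2 fold change was 0.67 ± 0.26 (SE), with an adjusted p of 0.384 by edgeR, and 0.34 ± 0.16 (SE) without knock-in 3. The small subunit mt:ATPase8 had 42.8, 58.4 and 102 CPM across controls and 64.1, 330.0 and 285 across knock-ins. Knock-ins 2 and 3 stood well above the other 4 libraries, while knock-in 1 lay among the controls. Its log2 fold change of 1.84 ± 0.62 (SE) was the widest of the 13 and had an adjusted p of 0.344 by edgeR.

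Complex I takes electrons from NADH, and its 7 mitochondrial subunits form the proton-pumping arm in the membrane. mt:ND1, where the arm meets the quinone site, had 926, 612 and 699 CPM across controls and 389, 1664 and 2297 across knock-ins. mt:ND5, at the far end of the arm, had 1130.2, 750.1 and 829.5 CPM across controls and 664, 1823 and 2130.3 across knock-ins. For both genes knock-ins 2 and 3 were the highest of the 6 and knock-in 1 the lowest. mt:ND4, a pumping subunit like mt:ND5, had 1146, 846 and 895 CPM across controls and 769, 1344.5 and 1737 across knock-ins. mt:ND4L, the smallest of the 7, had 19.2, 24.2 and 14.3 CPM across controls and 12.1, 43.3 and 34.2 across knock-ins. These 4 genes are the members on the minus strand, and all showed the same split, with knock-in 1 lowest and the other two knock-ins above every control.

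The remaining complex I genes lie on the plus strand. Of these, mt:ND6 and mt:ND2 split the libraries differently, while mt:ND3 showed the split just described. mt:ND6 had 792, 316 and 237 CPM across controls and 195, 241 and 941 across knock-ins. mt:ND2, also a pumping subunit, had 516, 233 and 175 CPM across controls and 135, 378 and 780.4 across knock-ins. mt:ND3 had 600.4, 586 and 486 CPM across controls and 351, 619 and 1487 across knock-ins. Knock-in 3 was highest and knock-in 1 lowest for all 3, and control 1 was second for mt:ND6 and mt:ND2. The log2 fold changes were 0.16 ± 0.67 (SE) for mt:ND6, 0.61 ± 0.62 for mt:ND2 and 0.65 ± 0.47 for mt:ND3, and all 3 were below 0 once knock-in 3 was left out (-0.87, -0.083 and -0.054). For the 4 genes on the minus strand the log2 fold change was 1.07 ± 0.56 (SE) for mt:ND1, 0.88 ± 0.40 for mt:ND5, 0.52 ± 0.28 for mt:ND4 and 0.74 ± 0.45 for mt:ND4L. The adjusted p by edgeR ran from 0.446 for mt:ND5 to 0.929 for mt:ND6.

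**Figure D1:**
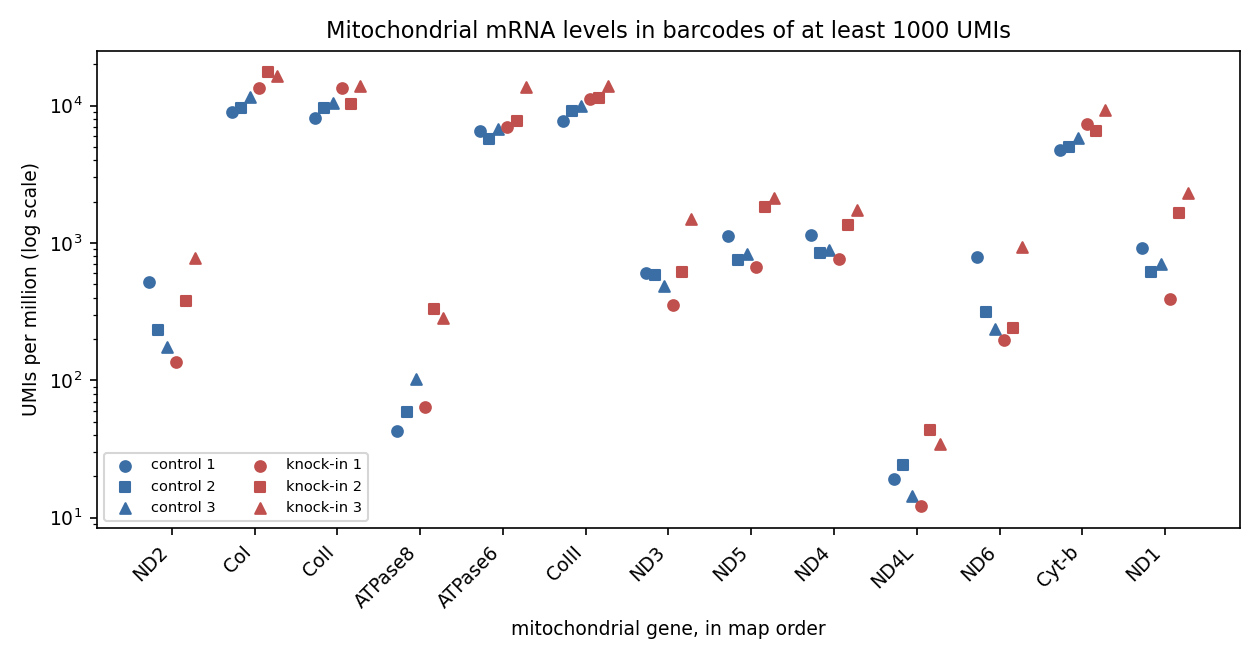
CPM (UMIs of a gene per 1000000 UMIs) in barcodes of at least 1000 UMIs, on a log axis, for the 13 genes in map order; each point is 1 library, blue for control and red for knock-in, with the shape giving the replicate number. The knock-in points for CoI, CoIII, Cyt-b and ATPase6 lie above the control points, while knock-in 1 is the lowest point for the ND genes.

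Taking gene length into account, the order of the levels in cells ran from mt:CoII, with a mean of 16029 CPM per kilobase over the 6 libraries, through mt:CoIII at 13372, mt:ATPase6 at 11659, mt:CoI at 8396 and mt:Cyt-b at 5702. The ranges over libraries of neighbours in this order overlapped: 11803 to 20437 for mt:CoII, 9737 to 17751 for mt:CoIII and 8420.1 to 20183 for mt:ATPase6. mt:ND3 followed at 1944, then mt:ND1 at 1169, mt:ATPase8 at 908, mt:ND6 at 864, mt:ND4 at 839, mt:ND5 at 711, mt:ND2 at 361 and mt:ND4L at 84.4, all in the same unit. Because reads come from the 3′ end of a transcript, these values describe tags per length of gene and not copies. In the Ensembl annotation of BDGP6.54, mt:ATPase8 spans bases 3907 to 4068 of the mitochondrial genome and mt:ATPase6 bases 4062 to 4736 on the plus strand, an overlap of 7 bases. mt:ND4 spans bases 8207 to 9545 and mt:ND4L bases 9545 to 9835 on the minus strand, an overlap of 1 base. In both pairs the upstream reading frame had the smaller number of tags, and how the authors' counting split reads between the frames is not given in the sources used here. mt:ATPase6 (to base 4736) also meets mt:CoIII (bases 4736 to 5524) in 1 base.

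The make-up of the mitochondrial mRNA, the share of each gene among mitochondrial UMIs, differed more between libraries than between the large neuron classes. mt:CoI took 21.7%, 22.6% and 24.0% of mitochondrial UMIs in control cells and 24.7%, 29.2% and 21.2% in knock-in cells. mt:CoII took 19.6%, 22.8% and 21.8% in controls and 24.3%, 17.2% and 18.2% in knock-ins. Knock-in 2 was thus the highest for mt:CoI and the lowest for mt:CoII. mt:Cyt-b and mt:CoIII were the steadiest, with a highest library 1.22 and 1.18 times the lowest. By the same ratio mt:ATPase8, mt:ND6 and mt:ND2 varied most, at 5.31, 5.42 and 5.10.

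Complex I genes together held 12.5%, 7.92% and 6.94% of mitochondrial UMIs in control cells and 4.58%, 10.2% and 12.2% in knock-in cells. The order of libraries, with control 1 and knock-in 3 high and knock-in 1 low, cut across the genotypes, and the means of 9.11% ± 2.94 (SD, n = 3) and 9.01% ± 3.96 (SD, n = 3) differed by less than the spread (exact permutation p = 0.9). Complex IV genes ran the other way, with 60.0%, 66.8% and 66.6% in controls and 69.2%, 65.4% and 57.6% in knock-ins (exact permutation p = 0.9). Genes on the minus strand held 7.82%, 5.25% and 5.08% in controls and 3.34%, 8.15% and 8.05% in knock-ins, a span of 2.44 times between the lowest and highest library. The 3 complex I genes on the plus strand spanned 3.74 times, from 1.24% in knock-in 1 to 4.63% in control 1.

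As a measure of distance between 2 libraries, the percentage points of mitochondrial UMIs that would have to move between genes ran from 2.65 to 12.9 over the 6 pairs of the same genotype and from 3.92 to 11.1 over the 9 pairs of different genotype. The closest pair was control 2 and control 3, and the farthest was knock-in 1 and knock-in 3. Within a library, the make-up was close to constant over the 3 large neuron classes described next. The SD of the log2 share of mt:ATPase8 was 0.99 over the 6 libraries within a class and 0.07 over the 3 classes within a library. For mt:ND6 the corresponding SDs were 0.96 and 0.06, and for mt:CoI 0.16 and 0.02.

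**Figure D2:**
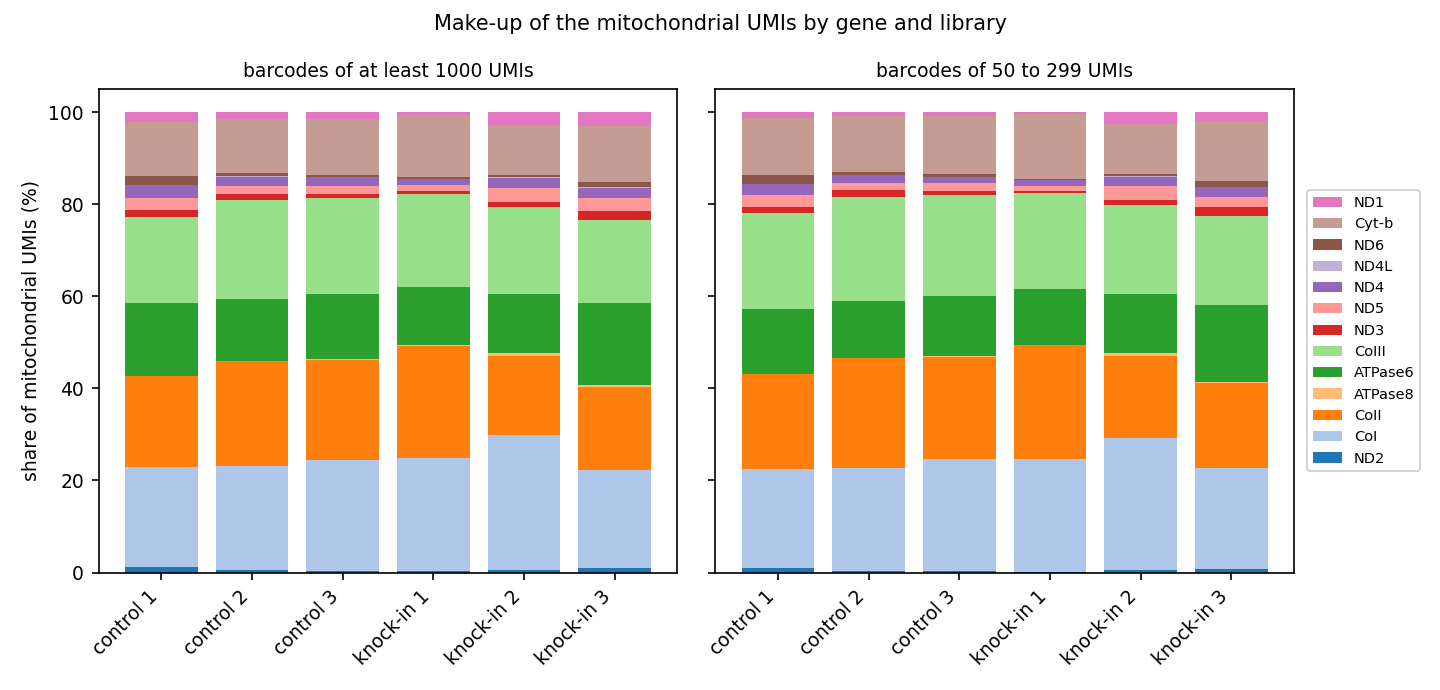
Share of each gene among the mitochondrial UMIs (%, stacked bars from 0) in each library, for barcodes of at least 1000 UMIs and for barcodes of 50 to under 300 UMIs. The bars of a library look alike in both panels, and the broad CoI band of knock-in 2 (29.2% in cells) sets it apart from the other libraries. Its CoII band (17.2% in cells) is the narrowest, with that of knock-in 3 (18.2%) close to it.

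Barcodes that hold only 50 to under 300 UMIs can hold free RNA and debris, and mitochondrial mRNA made up a far larger share of them. Their mitochondrial share was 52.2%, 36.0% and 36.9% across controls and 35.9%, 31.9% and 61.8% across knock-ins. Control 1 and knock-in 3 were high, and the genotypes overlapped (means 41.7% ± 9.08 and 43.2% ± 16.2, SD, n = 3 each; exact permutation p = 1.0). Depth within this range differed between libraries, with median UMIs per barcode of 89, 209 and 120 across controls and 249, 252 and 130 across knock-ins. The part of this depth in the genotype comparison was not tested. The share was 12.7, 8.47 and 7.69 times that of cells across controls and 6.53, 5.33 and 8.02 times across knock-ins. With the library as a block, edgeR called all 13 members lower in cells, as it did 2662 of the 8811 features tested (30.2%). Log2 fold changes ran from -3.47 ± 0.24 (SE, adjusted p = 3.83e-06) for mt:ND1 to -4.07 ± 0.35 (SE, adjusted p = 8.51e-06) for mt:CoIII, with a median of -3.88 beside -0.01 over all features. Each of the 13 calls held without any 1 library, with medians from -4.04 to -3.66.

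mt:CoI stood at 112339, 79992 and 89924 CPM in the shallow barcodes of the controls and at 87527.5, 91110.5 and 135377 in those of the knock-ins. mt:ND1 stood at 7139, 3349 and 3476 CPM across controls and at 1830.2, 8556 and 12168.5 across knock-ins. In each library both were far above the cells' values given earlier. The make-up of the mitochondrial UMIs in shallow barcodes was nearest to that of the same library's cells: it differed by 1.15 to 3.76 percentage points within a library and by 3.23 to 14.2 points, median 8.99, between cells and shallow barcodes of different libraries. The gene that differed most within a library was mt:CoIII in controls 1, 2 and 3 and knock-in 3, where cells had 2.07, 1.29, 1.20 and 1.29 points less than the shallow barcodes.

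Markers of several cell types moved in the same contrast. All 12 glia markers were lower in cells, with a median log2 fold change of -2.86, as were all 5 tested of 7 fat body markers (median -3.59), all 6 tested of 8 photoreceptor markers (median -2.37) and all 4 tested of 5 hemocyte markers (median -2.53). All 8 neuron markers were higher in cells (median 0.87). Nuclear genes for subunits of the same complexes had smaller changes, though many were called lower in cells. In complex I 22 of 34 tested genes were lower and 0 higher (median -0.24). In complex III 8 of 10 were lower and 1 higher (median -0.33). In complex IV 6 of 10 were lower and 0 higher (median -0.23), and in complex V 11 of 14 were lower and 1 higher (median -0.37). Over all 8811 features 2662 were lower (30.2%) and 2630 higher. The part of these other cell types and of free RNA in the mitochondrial counts was not tested.

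Between these extremes the share was lower in each deeper class. From barcodes of 1000 to under 2000 UMIs to barcodes of 4000 or more, it went from 5.53%, 8.403% and 7.25% to 2.41%, 2.62% and 2.85% in the controls, and from 10.6%, 8.67% and 14.1% to 3.32%, 3.31% and 4.77% across knock-ins. The shallower class had 2.29 to 3.21 times the share of the deeper one in every library. In each of the 3 depth classes of cells all knock-in libraries were above all controls, and at 2000 to under 4000 UMIs the shares were 3.43%, 4.88% and 4.49% against 6.09%, 5.28% and 7.90%. At 300 to under 1000 UMIs, a range that can hold small cells as well as free RNA, the genotypes overlapped, with 15.0%, 30.7% and 26.6% against 34.3%, 22.2% and 53.2%. Cells in which mitochondrial genes took over 20% of the UMIs amounted to 2.16%, 2.35% and 3.37% of cells across controls and 3.20%, 0.918% and 9.92% across knock-ins. Without them, the share in all cells was 3.60%, 3.97% and 4.07% against 5.15%, 5.86% and 5.84%, and the groups still did not overlap.

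**Figure D3:**
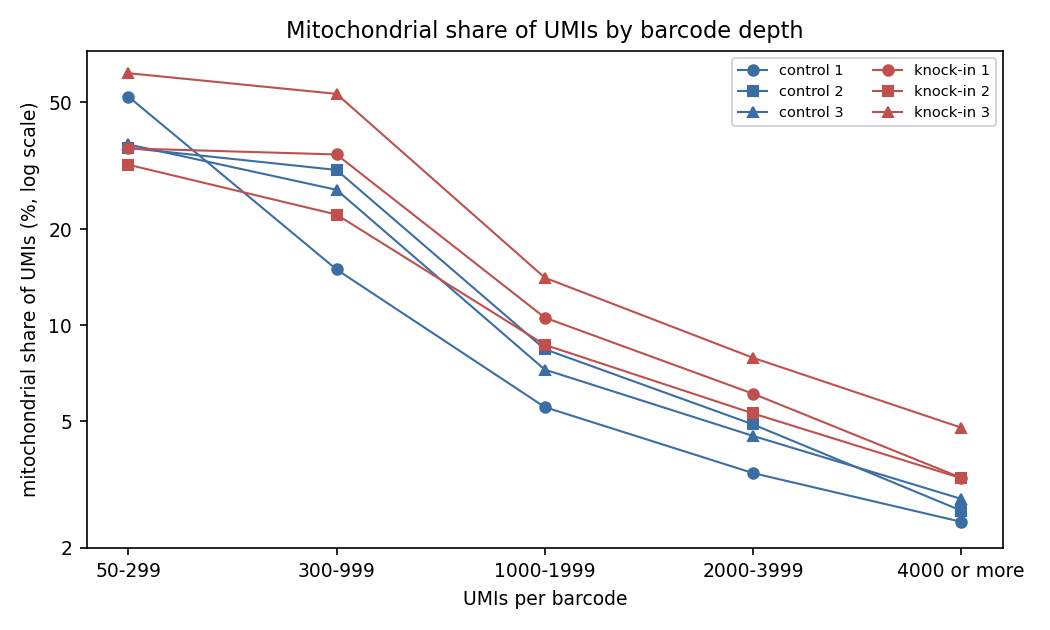
Mitochondrial share of UMIs (%, log axis) against the UMIs per barcode in 5 ranges, with 1 line per library, blue for control and red for knock-in. From 1000 UMIs upwards the red lines lie above the blue ones, and in the 2 shallow ranges the colours mix.

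Cell types were marked by the genes of their transmitters or identity: VAChT, the vesicular acetylcholine transporter, VGlut, the vesicular glutamate transporter, Gad1, which makes GABA, prt, a vesicular transporter found in mushroom body neurons, and repo, the transcription factor of glia. A gated cell had at least 2 UMIs of 1 of these genes and none of the other 4. The VAChT gate took 1432 to 7310 cells per library, the VGlut gate 655 to 3746 and the Gad1 gate 532 to 2107, while the prt gate took only 27 to 66 and the repo gate 12 to 44. Glia markers summed to 8300.0 to 13453 CPM in repo cells against 219 to 862 in VAChT cells, and neuron markers to 227 to 2480.2 against 10266 to 11474. The 5 Kenyon cell markers summed to 6084 to 10903 CPM in prt cells against 1992 to 2930 in VAChT cells. Kenyon cells are cholinergic and the gate bars VAChT, so the prt cells are a small and selected set.

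Glial cells marked by repo had the highest mitochondrial share of the 5 classes in every library, at 10.9%, 8.996% and 10.998% across controls and 9.31%, 9.52% and 14.1% across knock-ins. Cholinergic cells marked by VAChT had 3.78%, 3.92% and 4.10% across controls and 4.98%, 5.75% and 6.29% across knock-ins. The ratio of repo to VAChT cells ran from 1.66 to 2.89, with a mean difference of 5.84 percentage points ± 1.67 (SD over 6 libraries; exact paired permutation p = 0.0312, the smallest that 6 pairs allow, and the same when adjusted over the 4 gates). Glutamatergic and GABAergic cells lay slightly above cholinergic cells in 6 of 6 libraries, by 0.677 ± 0.289 and 0.450 ± 0.364 points, and prt cells lay below in 6 of 6, by 1.09 ± 0.716 points, each with the same exact p. With gates of at least 1 UMI the differences were 6.97 points for repo, 0.640 for VGlut, 0.372 for Gad1 and -0.473 for prt. None kept the call (adjusted exact paired permutation p = 0.0625, 0.0625, 0.219 and 0.125). The repo difference was larger than the 5.84 points above, and its adjusted p also depends on the p-values of the other gates. Median UMIs per cell ran from 2024 to 6755 in repo cells and from 1737.5 to 2724 in VAChT cells. By library, with knock-in 3 left out of this comparison, VAChT cells had 1737.5, 2673 and 2171 across controls, and 2724 and 1912 in knock-ins 1 and 2. In the same order, VGlut cells had 1602, 2327, 1955, 2298.5 and 1648.5, all lower. The prt cells had 2218, 3294.5, 2877, 3042 and 2004.5, all higher. Gad1 cells had 1828.5, 2553, 2339.5, 2566 and 1898, on both sides. The part of depth was not tested beyond the alternatives given here.

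In the fit of all features over the 5 gates with the library as a block, repo cells were higher than VAChT cells for all 13 members, where 1443 of 7381 features were higher (19.6%). The members' median log2 fold change was 1.10 beside -0.42 over all features. The 3 largest changes were in complex I genes. mt:ND4 had 5865, 2459 and 2963 CPM in repo cells of the controls and 1849, 2560 and 5160.5 in those of the knock-ins. In VAChT cells it had 1018, 770.3 and 723 across controls and 707, 1288 and 1440.4 across knock-ins, so that repo cells were above VAChT cells in 6 of 6 libraries. Its log2 fold change was 1.65 ± 0.15 (SE, adjusted p = 1.86e-11 by edgeR). mt:ND5 and mt:ND2 followed with 1.46 ± 0.15 and 1.45 ± 0.12. For the others the log2 fold change was 1.22 for mt:ND3, 1.16 for mt:ND6, 1.12 for mt:ND4L, 1.10 for mt:CoI, 1.06 for mt:ND1, 1.03 for mt:Cyt-b, 1.02 for mt:CoIII and 0.91 for mt:CoII.

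The ATP synthase genes moved least. mt:ATPase6 had 15504, 9944 and 12596 CPM in repo cells of the controls against 5913, 5192 and 5874 in VAChT cells, and 10033, 12084 and 20105 against 6277, 7379 and 10971.5 across knock-ins. Its log2 fold change was 0.81 ± 0.12 (SE, adjusted p = 6.59e-07). mt:ATPase8, counted few times in so few cells, had 0.62 ± 0.17 (SE, adjusted p = 0.00244). The share of complex I genes among mitochondrial UMIs was higher in repo than in VAChT cells in 6 of 6 libraries, at 19.2%, 9.76% and 8.47% against 12.2%, 7.89% and 6.81% across controls and 5.51%, 10.5% and 15.7% against 4.66%, 10.2% and 12.5% across knock-ins. The share of complex V genes was lower in repo cells in each of the 6. These differences in make-up were not tested.

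Among nuclear genes of the complexes in repo cells, 3 of 33 tested complex I genes were higher and 6 lower (median -0.05). In complex III 0 of 9 were higher and 2 lower (median -0.10). In complex IV 0 of 9 were higher and 1 lower (median -0.14), and in complex V 6 of 13 were higher and 1 lower (median 0.24). Over all 7381 features 1443 were higher and 2506 lower. Each of these medians lay above the median of -0.42 over all features. Fat body markers, which mark a tissue outside the brain, summed to 1587 to 3454 CPM in repo cells of the controls and 991 to 3274 in those of the knock-ins, against 499 to 3730.0 and 19.8 to 549.5 in VAChT cells. Only 4 of the 7 markers had any UMI in repo cells, and Fbp1, Fbp2 and Lsp2 had none. Of the 4 tested, 1 was called higher in repo than in VAChT cells and 0 lower. The part of these markers in the mitochondrial difference was not tested. Without gated cells over 20% mitochondrial, all 13 members remained higher, with a median of 0.86. Without gated cells of 4000 UMIs or more, all 13 were above 0 (median 1.02) and 11 were called higher, where 790 of 6730 features were. The calls of mt:ATPase8 (0.46, adjusted p = 0.185) and mt:ND4L (0.93, adjusted p = 0.113) were lost.

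Cells in the prt gate were lower than VAChT cells for 8 members, where 1087 of 7381 features were lower (14.7%), and the members' median was -0.37 beside -0.15. mt:ND2 had 181, 121 and 95.6 CPM in prt cells of the controls against 469, 208 and 161 in VAChT cells, and 116, 239 and 429 against 128, 362 and 654 across knock-ins. Values were lower in prt cells in 6 of 6 libraries, with a log2 fold change of -0.64 ± 0.16 (SE, adjusted p = 0.00197). mt:ND6 had -0.63 ± 0.14 (adjusted p = 0.000574) and mt:ND5 -0.61 ± 0.16 (adjusted p = 0.00464). With gates of at least 1 UMI none of the 13 was called, where 1052 of 7674 features were lower. Without control 1, control 2 or knock-in 3 the number of members called was 5, 3 or 4. In these fits 1034 of 7789, 874 of 7251 and 1035 of 7314 features were lower. Nuclear genes of the complexes were lower in prt cells as well, with 22 of 33 tested complex I genes, 6 of 9 complex III, 6 of 9 complex IV and 4 of 13 complex V genes called.

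In VGlut and Gad1 cells few members differed from VAChT cells by the test. A single member, mt:ATPase8, was called higher in each, with a log2 fold change of 0.23 ± 0.07 (SE, adjusted p = 0.0269) in VGlut cells and 0.22 ± 0.08 (SE, adjusted p = 0.0364) in Gad1 cells, where 565 (7.65%) and 844 (11.4%) of 7381 features were higher. With gates of at least 1 UMI neither call remained. The VGlut call was also lost without control 2 (adjusted p = 0.108), control 3 (0.0507) or knock-in 1 (0.0746), and without gated cells of 4000 UMIs or more (0.0552). The Gad1 call was also lost without control 2 (adjusted p = 0.120) or knock-in 3 (0.167), and without gated cells over 20% mitochondrial, where the log2 fold change was 0.090. The members' medians were 0.19 and 0.15, beside 0.01 and -0.01 over all features.

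**Figure D4:**
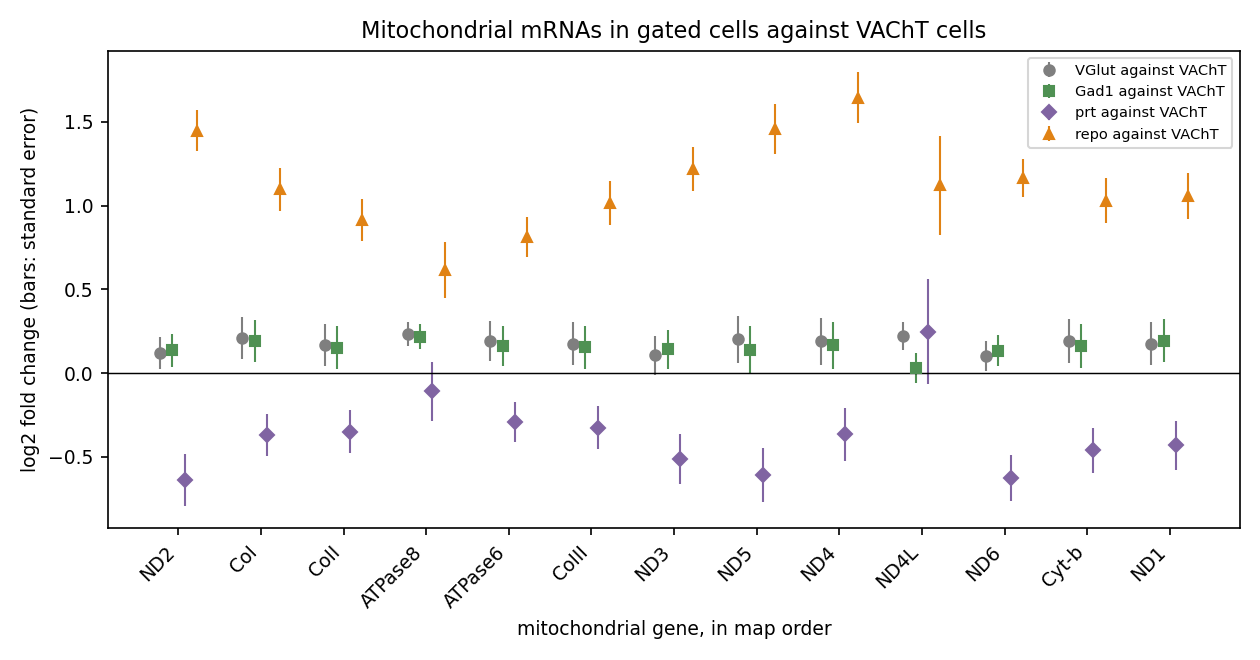
Log2 fold change of each of the 13 genes, in map order, in VGlut, Gad1, prt and repo cells against VAChT cells; points are the fitted values of the model over 5 gates with the library as a block, and bars are standard errors. All repo points lie above 0 (0.62 to 1.65), VGlut and Gad1 points lie just above 0, and prt points lie below 0 except for ND4L.

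In the neuron classes the genotypes were apart as they were in all cells. VAChT cells had a mitochondrial share of 3.93% ± 0.161 (SD, n = 3) in controls and 5.67% ± 0.658 (SD, n = 3) in knock-ins. VGlut cells had 4.27%, 4.57% and 4.31% against 5.89%, 6.60% and 7.25%, and Gad1 cells 3.85%, 4.34% and 4.604% against 5.36%, 5.96% and 7.41%. The few prt cells had 2.64%, 2.28% and 3.91% against 4.38%, 4.94% and 4.14%. In each of these 4 classes every knock-in library was above every control, and the exact permutation p was 0.1, or 0.14 when adjusted over the 7 classes. In repo cells the groups overlapped, with means of 10.3% ± 1.14 and 10.98% ± 2.71 (SD, n = 3 each; exact permutation p = 0.8), and without knock-in 3 the difference of 0.673 points turned to -0.890. Whether the knock-in difference was smaller in repo than in VAChT cells was tested on the log2 ratio of the 2 shares, which was lower by 0.45 in knock-ins (exact permutation p = 0.1, the smallest possible).

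**Figure D5:**
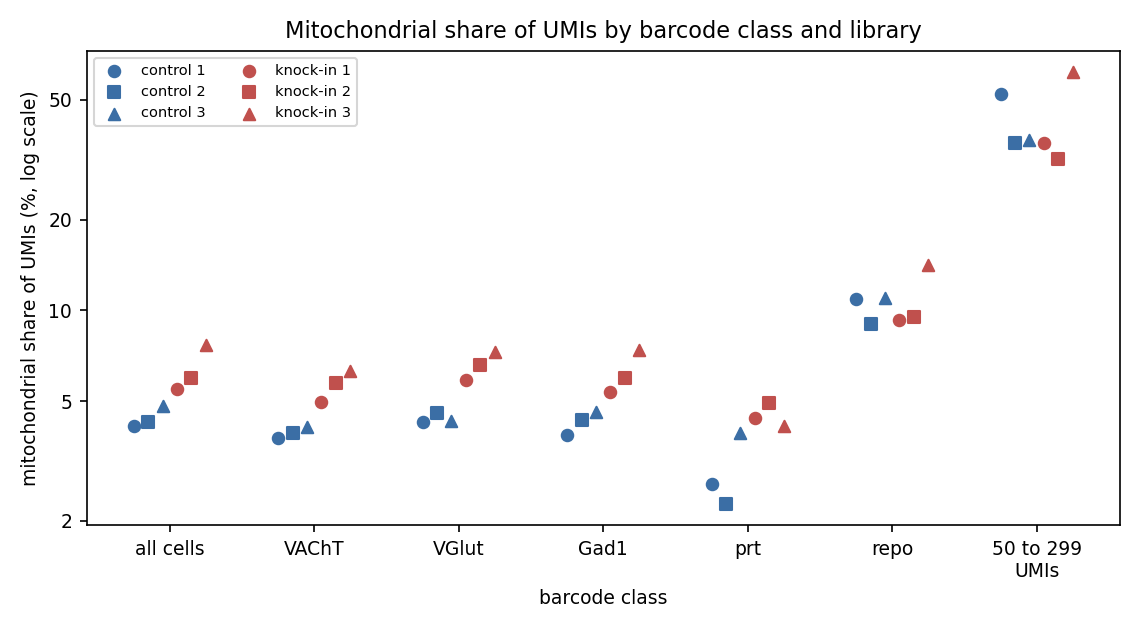
Mitochondrial share of UMIs (%, log axis) in all cells, in the 5 gated classes and in barcodes of 50 to under 300 UMIs; each point is 1 library, blue for control and red for knock-in. Red points lie above blue points in all cells and in the VAChT, VGlut, Gad1 and prt classes (exact permutation p = 0.1 each), and the colours mix in repo cells and in shallow barcodes.

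By edgeR no member was called between genotypes in any gated class, where 28 of 8984 features (0.312%) were called in VAChT cells, 17 of 7921 (0.215%) in VGlut cells, 23 of 7460 (0.308%) in Gad1 cells, 0 of 1602 (0.0%) in prt cells and 3 of 1389 (0.216%) in repo cells. In prt cells 11 members passed the filter on low counts and in repo cells 12. In prt cells 4 members and 68 features had an unadjusted p under 0.05, and DESeq2 called 1 feature and no member. The members' median log2 fold change was 0.66 in VAChT, 0.67 in VGlut, 0.69 in Gad1, 0.64 in prt and 0.13 in repo cells. Without knock-in 3 it was 0.51 in VAChT cells (11 of 13 above 0) and 0.61 in VGlut cells (12 of 13). In Gad1 cells it was then 0.47 (10 of 13), and in prt cells 0.66 (10 of 11). The repo median was -0.29 without knock-in 3, with 2 of 12 members above 0, and -0.0016 without control 2. Glia markers had a median of 0.76 in VAChT cells (8 of 10 above 0), 0.72 in VGlut cells (9 of 9) and 0.93 in Gad1 cells (8 of 9), and summed to 219 to 402 CPM in VAChT cells of the controls and 346 to 862 in those of the knock-ins. Fat body markers had medians of -2.44, -1.71 and -1.52, with 0 of 4 above 0 in each class. No marker of either list was called in these classes by edgeR, and their part in the members' values was not tested. mt:Cyt-b came nearest to a call, with 0.73 ± 0.12 (SE, adjusted p = 0.0636) in VGlut cells. It had 4981, 5335 and 5294 CPM in VGlut cells of the controls and 8025, 7304 and 8897 in those of the knock-ins, without overlap.

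DESeq2, the other tool run, called 5 members higher in VAChT cells, among 60 features called higher (0.668%), 5 in VGlut cells, among 33 (0.417%), and 2 in Gad1 cells, among 27 (0.362%). The 5 were mt:CoI, mt:CoII, mt:CoIII, mt:Cyt-b and mt:ATPase6 in both VAChT and VGlut cells, and the 2 were mt:CoI and mt:Cyt-b. mt:Cyt-b had an adjusted p of 0.000158 in VAChT cells and of 9.37e-05 in VGlut cells by DESeq2. Without knock-in 1 edgeR called mt:ND1 in VAChT cells (1.57, adjusted p = 0.0456) and mt:ND1 and mt:ATPase8 in Gad1 cells (1.51 and 2.40, adjusted p = 0.0379 and 0.0421), where 8 of 8705 and 7 of 7299 features were called.

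By CPM, the genotypes in all cells did not overlap for mt:CoI, mt:CoIII, mt:Cyt-b and mt:ATPase6, and they overlapped for mt:CoII. Counted by the absence of overlap on TMM-scaled counts instead, every knock-in library was above every control for 5 of 13 members in all cells, where the same held for 8.88% of features. It held for 5 of 13 in VAChT (7.18% of features), in VGlut (5.76%) and in Gad1 cells (6.01%), for 3 of 11 in prt cells (5.06%), and for none in repo cells (9.79%) or in shallow barcodes (9.67%). No member lay wholly below the controls in any class. In shallow barcodes edgeR called 12 of 8306 features (0.144%) and no member, with a member median of 0.22. The median was -0.64 without knock-in 3 and 0.89 without control 1. mt:ATPase8 had the widest change there too, 1.70 ± 0.69 (SE, adjusted p = 0.260), at 336, 381 and 537 CPM across controls and 329, 1873 and 1444 across knock-ins. Knock-ins 2 and 3 were again high and knock-in 1 was the lowest of the 6. The difference of the genotype effect between cells and shallow barcodes was called for 20 of 9619 features (0.208%) and for no member, although all 13 were above 0 (median 0.68). That median was 0.23 without control 1, with 12 of 13 above 0, 0.42 and 0.44 without knock-ins 1 and 2, and 1.07 without knock-in 3.

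Markers of other tissues differed between the genotypes in the same cells. Fat body markers summed to 7521, 3300.1 and 731 CPM in cells of the controls and to 532, 660.2 and 27.1 in those of the knock-ins, and 5 hemocyte markers to 9.75 to 19.3 against 1.54 to 5.37. Both sets were lower in all 3 knock-in libraries, and none of the 5 and 4 markers tested was called. Glia markers summed to 501 to 632 against 566 to 1002, with overlap. Median UMIs per cell were 1633, 2473 and 1938 across controls and 2446, 1814 and 2256.5 across knock-ins, and the groups overlapped. In the 3 depth classes of cells given above all knock-in libraries had a higher mitochondrial share than all controls. In the ranges under 1000 UMIs the genotypes overlapped. The part of these measures in the mitochondrial difference was not tested.

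Respiratory chain subunits made from nuclear genes mostly had fitted fold changes below 0, and their sums were lowest in knock-in 2. In all cells none of 35 complex I, 10 complex III, 11 complex IV and 15 complex V genes tested was called by edgeR, and 4, 3, 2 and 3 of them were above 0. The medians were -0.20, -0.09, -0.17 and -0.18 on the log2 scale, beside 0.00 over all features. Of 16 tested genes for copying and expressing mitochondrial DNA, none was called and 8 were above 0 (median -0.02). Over all 87 nuclear genes, 67 were below 0, and 7 had an unadjusted p under 0.05 by edgeR, where 1343 of 11200 features had. Summed by complex, knock-in 2 was the lowest library for each, and knock-ins 1 and 3 lay within the range of the controls. For complex I the sums were 0.712%, 0.682% and 0.579% of the UMIs of nuclear genes across controls and 0.602%, 0.408% and 0.661% across knock-ins.

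Summed over 13 nuclear genes, complex IV had 5923, 5959 and 4817 CPM in cells of the controls and 5174, 3736 and 5909.5 in those of the knock-ins, so the groups overlapped and knock-in 2 was the lowest. These levels are scaled to UMIs of nuclear genes alone. The ratio of mitochondrial to nuclear complex IV UMIs was 4.35, 4.98 and 6.98 across controls and 7.77, 11.1 and 8.13 across knock-ins, with no overlap. For complex III, 1 mitochondrial gene against 11 nuclear genes, the ratio was 1.57, 1.49 and 2.09 against 2.55, 3.26 and 3.18, also with no overlap. For complex I, 7 against 40 genes, it was 0.751, 0.516 and 0.605 against 0.442, 1.59 and 1.54, and knock-in 1 was below all controls. In complex V control 3 and knock-in 1 both had 1.16, the other controls 0.847 and 0.804, and the other knock-ins 1.69 and 2.13.

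By the rule of the 3 lowest and 3 highest fold changes among the tested nuclear genes, the genes named are mostly rarely counted. ATPsynepsilonL had -2.67 ± 0.84 (SE, adjusted p = 0.307), COX7AL -2.22 ± 1.21 (adjusted p = 0.510) and scu, a subunit of the RNase that processes mitochondrial tRNA ends, -0.57 ± 0.22 (adjusted p = 0.384). scu was the best counted of the 6, with 32.5, 23.3 and 20.6 CPM across controls and 20.7, 13.3 and 13.7 across knock-ins, where knock-in 1 and control 3 were level. ND-51L2, ATPsynCF6L and COX5BL had the highest log2 fold changes, from 0.56 to 0.67, with adjusted p from 0.454 to 0.676 by edgeR and at most 4.75 CPM in any library.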

How the data were processed

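The deposited files hold whole-number UMI counts per gene and barcode, 1 unfiltered matrix per library, with Cell Ranger 4 as the software named per the file headers, while the submitters' processing notes name Cell Ranger 6.0. The genome build, annotation, strand setting and any cell filter are not given in the sources used here. No normalization was applied to the deposited counts.

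Counts were summed per library over barcode classes: at least 1000 UMIs (cells), 50 to under 300 UMIs (shallow), depth ranges, and cells gated at 2 or more UMIs of 1 gate gene and 0 of the other 4. No doublet caller was run; leaving out the deepest 5% of cells stood in as an alternative. Sums were fitted across all features that passed filterByExpr with edgeR 4.0.16 (quasi-likelihood, TMM) and R 4.3.3. P-values were adjusted by Benjamini-Hochberg over all features tested, at 0.05. DESeq2 1.42.0 was an alternative. Shares were compared by two-sided exact permutation of libraries, paired by library between gates. The edgeR script was tested on simulated counts.

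All 13 members matched the Ensembl annotation of BDGP6.54 by identifier. All member genes are named. Of the nuclear lists, the 3 lowest and 3 highest fold changes in cells are named. One gene of the upkeep list, Mrpp3, was not matched. The members, gates and lists were chosen with earlier results of these data known. A planned share of ribosomal RNA was not computed, since no such row was in the feature list. Intervals from counting were not used, since spread between libraries set the precision.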

Additional observations from a re-analysis of the deposited data

How the results depend on the processing

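The 13 calls of lower levels in cells than in shallow barcodes kept their direction and their call in all 9 alternatives, and so did the repo rise of mt:CoI, mt:ND4 and 9 further members in all 10; mt:ATPase8 and mt:ND4L lost it once each. Leaving out 1 library, with 5 pairs left, cannot give an exact p under 0.0625, and the share differences from VAChT cells then ran from 5.45 to 6.25 points for repo, 0.620 to 0.771 for VGlut, 0.315 to 0.525 for Gad1 and -1.27 to -0.875 for prt. At gates of 1 UMI they were 6.97, 0.640, 0.372 and -0.473, and without gated cells over 20% mitochondrial 4.75, 0.580, 0.174 and -0.970. Both limits on gated cells, and all alternatives to genotype shares in gates and shallow barcodes, were chosen after seeing the data. Members called between gates were 0 for VGlut, Gad1 and prt at 1 UMI, and 0 for Gad1 without cells over 20% mitochondrial. Without cells of 4000 UMIs or more they were 0 for VGlut and 4 for Gad1. In that Gad1 fit 925 of 6730 features were higher. Without 1 library members called were 0 to 1 for VGlut, 0 to 1 for Gad1 and 3 to 9 for prt. For prt, 3 were called without control 2 and 9 without control 3, where 874 of 7251 and 1040 of 7811 features were lower. Features called were 486 for VGlut and 753 for Gad1 at 1 UMI, and 2516 for repo without cells of 4000 UMIs or more.

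The genotype difference of the mitochondrial share in cells stayed between 1.34 and 2.58 points under all alternatives. In shallow barcodes it was -0.244 at 50 to under 100 UMIs and ran from -7.82 to 7.12 without 1 library, and in repo cells from -0.890 to 1.51. Features called between genotypes in cells were 381 with DESeq2, 56 without the filter, 13 with a depth term, and 9, 2, 11, 1, 1 and 61 without controls 1 to 3 and knock-ins 1 to 3, with no member called in any of these but DESeq2 (2). In shallow barcodes they were 21 at 100 to under 300 UMIs, 175 at 50 to under 100, 724 with DESeq2, 1047 without the filter (1 member, mt:ATPase8) and 0 to 731 without 1 library (731 without control 3). DESeq2 gave 134 features (5 members) in VAChT, 58 (5) in VGlut, 52 (2) in Gad1, 1 in prt and 12 in repo cells, gates of 1 UMI gave 4 in Gad1 and 2 in prt, and leaving out 1 library gave 5 to 84 (0 to 1 members), 3 to 68, 3 to 90 (0 to 2 members), 0 and 0 to 13; 84, 68, 90 and 13 were the counts without knock-in 3. For cells minus shallow barcodes there were 37 at 100 to under 300 UMIs, 5 with RLE size factors and 2 to 246 without 1 library (246 without control 3).

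With a replicate block features called were 8 in cells, 712 in shallow barcodes, 152 in VAChT cells (1 member, mt:Cyt-b) and 55 in VGlut cells (3 members, mt:Cyt-b, mt:CoI and mt:CoIII). Same-numbered libraries correlated at 0.119, 0.048 and 0.257 in their deviations, not all over 0.1, so the numbers are not taken to pair the libraries. mt:ND6 was -0.078 in cells and -0.028 in VAChT cells with the replicate block, and without 1 library ran from -0.87 to 0.77 and from -0.80 to 0.78. Without 1 library mt:ND3 ran from -0.054 to 1.03 and mt:ND2 from -0.083 to 1.13 in cells, and mt:CoI in shallow barcodes from -0.35 to 0.65, with -0.68 at 50 to under 100 UMIs. The cause of these changes was not tested. The planned ribosomal RNA share gave no value. Cell numbers were low in the prt and repo gates, with as few as 27 and 12 cells per library.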
